A study of Homo sapiens with 14 samples.

Results

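The miR-29 family is a group of microRNAs (miRNAs) that share one seed, the stretch of bases that pairs with target messages. Its members here were the 3 guide strands hsa-miR-29a-3p, hsa-miR-29b-3p and hsa-miR-29c-3p, found by name in the deposited count table, and all 3 of 3 were among its 2848 entries. The libraries came from PANC-1, an established human line derived from a pancreatic ductal carcinoma, and the study asked how PA (proanthocyanidins of grape, chains of flavan-3-ol units) alters its miRNAs. The groups were PA at 20 µg/ml for 3, 12 and 24 h and the vehicle DMSO for 0, 3, 12 and 24 h, each with 2 small RNA libraries lettered A and B, 14 in all. All groups were 1 cell line with no genetic change named in the labels. Whether A and B were separate cultures was not stated, so p-values measure the spread between these libraries, which may be technical.

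A miRNA is cut from a hairpin as a duplex, from which the guide strand enters an Argonaute protein and represses messages that match its seed, while the passenger strand is mostly lost. The miR-29 family is known above all for repressing collagens and other matrix genes, and it also targets the DNA methyltransferases DNMT3A and DNMT3B and the survival factor MCL1. In many solid tumours and fibrotic tissues the family is described as low, and its members act largely on the same messages because they share a seed.

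The mature sequences show why the members form one family and where they differ. They are given in the 5′ to 3′ direction from RefSeq (GRCh38.p14), with the seed, bases 2 to 8, in capitals.
miR-29a-3p: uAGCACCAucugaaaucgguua
miR-29b-3p: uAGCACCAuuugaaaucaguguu
miR-29c-3p: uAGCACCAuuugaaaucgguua
Of 2370 mature human names in the RefSeq miRNA table, exactly these 3 had the seed AGCACCA. Counted from 1 at the 5′ end, miR-29a and miR-29c differed at 1 of 22 bases (C10U, the miR-29a base first). miR-29a and miR-29b differed at 4 of the 22 bases compared (C10U, G18A, U21G and A22U). A pair of features of the 3′ part are known from human cell lines. The last 6 bases of miR-29b, AGUGUU, have been linked to its import into the nucleus, and uracils at bases 9 to 11, which miR-29b and miR-29c have as UUU where miR-29a has UCU, have been linked to faster decay. Because miR-29a-3p and miR-29c-3p are a single base apart, reads could be assigned to either where mismatches were allowed, and the counting rule was not given in the sources used here.

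The family is encoded by 2 pairs of hairpins. MIR29A (chr7:130876747-130876810, minus strand) and MIR29B1 (chr7:130877459-130877539, minus strand) were 648 bases apart, and MIR29C (chr1:207801852-207801939, minus strand) and MIR29B2 (chr1:207802443-207802523, minus strand) were 503 bases apart on GRCh38. In GENCODE v29 both chromosome 1 hairpins lay wholly within exons of the non-coding RNA gene MIR29B2CHG. On chromosome 7, all 81 bases of MIR29B1 and 2 bases of MIR29A lay in exons of the non-coding RNA gene LINC-PINT. The hairpins of miR-29b are shown because they decide what its count can tell, with the mature 3p strand in capitals.
MIR29B1: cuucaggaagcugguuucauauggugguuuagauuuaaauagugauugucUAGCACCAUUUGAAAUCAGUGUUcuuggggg
MIR29B2: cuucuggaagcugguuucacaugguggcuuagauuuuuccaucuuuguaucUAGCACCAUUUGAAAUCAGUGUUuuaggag
Both hairpins give the same 23-base guide strand, so a miR-29b-3p read cannot be placed on either chromosome. Their passenger strands differ and can be told apart.
miR-29b-1-5p: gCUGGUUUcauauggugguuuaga
miR-29b-2-5p: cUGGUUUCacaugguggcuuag

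miR-29a-3p was one of the main miRNAs of these cells and made up nearly the whole family. Levels are in CPM, a count scaled by the library total times a TMM factor (edgeR's correction for library composition). The libraries held 1032391 to 3111014 counts each (median 2076388). miR-29a-3p averaged 55039 CPM and ranked 4 of 2848 entries. miR-29b-3p averaged 1292 CPM at rank 73, and miR-29c-3p averaged 165 CPM at rank 196. Per base of mature length, the mean level of miR-29a-3p was 44.5 times that of miR-29b-3p and 334 times that of miR-29c-3p. The 3 members together held 4.52% to 6.76% of a library's counts, and miR-29a-3p was 97.0% to 98.0% of the family in every library. miR-29b-3p was 1.74% to 2.67% of it and miR-29c-3p 0.225% to 0.322%. Counts were ample for each member, from at least 45748 in a library for miR-29a-3p to at least 813 for miR-29b-3p and at least 105 for miR-29c-3p.

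Passenger strands were scarce. miR-29a-5p averaged 59.5 CPM, miR-29b-1-5p 20.1 CPM and miR-29c-5p 6.51 CPM. For every 100 counts of its own guide strand, the passenger strand had 0.0649 to 0.132 counts for miR-29a and 1.74 to 6.59 for miR-29c. miR-29b-1-5p had 0.853 to 3.81 counts per 100 of miR-29b-3p, a guide strand that both miR-29b hairpins give. miR-29b-2-5p had 8 counts over all 14 libraries and was at 0 in 9 of them, where up to 3 counts would still be possible, and it was too low to test. Over all libraries 576 of 584 passenger counts of miR-29b came from MIR29B1, a share of 98.6% (95% Wilson interval 97.3% to 99.3%, counting error only). Reads of guide strands cannot be divided in this way, and the 2 passenger strands may differ in how far they are lost. miR-767-5p, whose seed GCACCAU is that of the family shifted by 1 base, averaged 12.2 CPM.

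**Figure D1:**
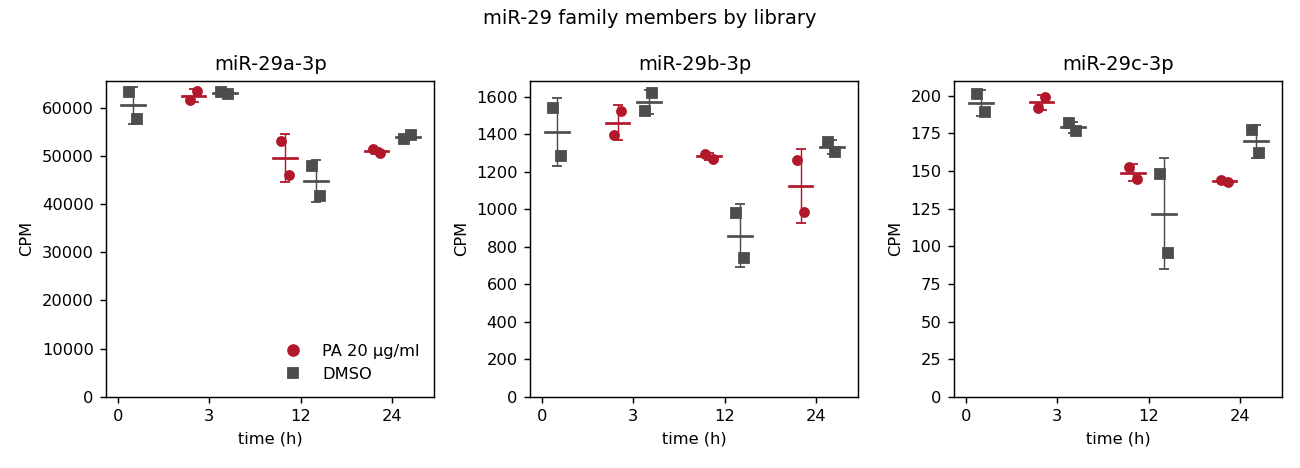
CPM of miR-29a-3p, miR-29b-3p and miR-29c-3p (vertical axes, starting at 0) at 0, 3, 12 and 24 h, with PA in red circles left of DMSO in grey squares. Points are libraries A and B, horizontal lines group means and bars 1 SD (n = 2). The DMSO libraries at 12 h include the lowest library of each member, at 41603, 739 and 95.5 CPM.

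In the PA series miR-29a-3p had 61570 and 63407 CPM at 3 h, 53163 and 46069 CPM at 12 h, and 51455 and 50556 CPM at 24 h (libraries A and B). In DMSO it had 63186 and 57711 CPM at 0 h, 63303 and 62901 CPM at 3 h, 47801 and 41603 CPM at 12 h, and 53590 and 54237 CPM at 24 h. The 3 h and 0 h groups were at the top and overlapped one another. All libraries of 12 and 24 h lay below them, whichever the treatment. Ordered by mean, DMSO at 24 h did not overlap PA at 24 h below it, while PA at 24 h, PA at 12 h and DMSO at 12 h overlapped from one to the next.

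miR-29b-3p had 1395 and 1527 CPM at 3 h, 1294 and 1270 CPM at 12 h, and 1265 and 986 CPM at 24 h of PA. In DMSO it had 1538 and 1282 CPM at 0 h, 1526 and 1618 CPM at 3 h, 979 and 739 CPM at 12 h, and 1360 and 1308 CPM at 24 h. Both DMSO libraries at 12 h were below the 12 others. The next lowest was PA 24 h B, and the 2 PA libraries at 24 h were far apart. The 4 highest groups by mean, DMSO 3 h, PA 3 h, DMSO 0 h and DMSO 24 h, each overlapped the next.

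miR-29c-3p had 192 and 199 CPM at 3 h, 153 and 145 CPM at 12 h, and 144 and 143 CPM at 24 h of PA. In DMSO it had 201 and 189 CPM at 0 h, 182 and 177 CPM at 3 h, 148 and 95.5 CPM at 12 h, and 178 and 162 CPM at 24 h. Here only library B of DMSO at 12 h stood far below the rest, and library A was level with the PA libraries of that time. PA 3 h and DMSO 0 h were highest and overlapped, while DMSO 0 h did not overlap DMSO 3 h below it.

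At 3 h no member passed the test between PA and DMSO. The log2 fold change of PA over DMSO was -0.014 ± 0.13 for miR-29a-3p, -0.11 ± 0.18 for miR-29b-3p and 0.13 ± 0.19 for miR-29c-3p (SE). The SE, here and below, was derived from the edgeR test as the absolute log2 fold change over the square root of F. The test was edgeR's quasi-likelihood test with Benjamini-Hochberg adjustment over 810 entries and a threshold of 0.05. None of the 3 passed, and 0.247% of all entries did. The PA libraries of miR-29c-3p were both above its DMSO libraries, as those of 16.3% of entries were. The 95% intervals were -0.30 to 0.27 for miR-29a-3p, -0.48 to 0.27 for miR-29b-3p and -0.28 to 0.53 for miR-29c-3p. Such intervals were made from the SE and a t quantile, and cover only the spread between these libraries.

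At 12 h miR-29b-3p was higher in PA and was the member that passed. It averaged 1282 ± 17.4 CPM in PA and 859 ± 169 CPM in DMSO (SD, n = 2 each), a rise of 49.1%. Both PA libraries were above both DMSO libraries. The log2 fold change was 0.58 ± 0.18 (95% interval 0.20 to 0.96, adjusted p = 0.0498 by edgeR), just under the threshold. Its p was the 88th smallest of 810. In this comparison 11.1% of all entries passed, 6.3% as higher and 4.81% as lower, and 25.3% had PA libraries wholly above DMSO libraries. The largest member, miR-29a-3p, had a log2 fold change of 0.15 ± 0.13 (interval -0.13 to 0.43, adjusted p = 0.504) and miR-29c-3p of 0.28 ± 0.20 (interval -0.14 to 0.70, adjusted p = 0.395), and the libraries of both overlapped.

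For each member the DMSO group at 12 h was the lowest of the 7 by mean. Set against the mean of DMSO at 0, 3 and 24 h, PA at 12 h was not higher, with log2 fold changes of -0.25 for miR-29a-3p (adjusted p = 0.340), -0.16 for miR-29b-3p (adjusted p = 0.644) and -0.28 for miR-29c-3p (adjusted p = 0.486). The call also depended on single libraries, as it held in 4 of 14 fits that left out 1 library (DMSO 0 h A, DMSO 12 h A, PA 24 h A or PA 24 h B), with log2 fold changes from 0.40 to 0.80 over the 14. Without DMSO 12 h B, the shallowest library, it was 0.40 with an adjusted p of 0.260.

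Sums of marker miRNAs did not overlap between PA and DMSO at 12 h for some lists, and no background share was worked out for such sums. The ductal carcinoma, epithelial, and acinar and islet sums overlapped at 12 h. The summed level of 8 fibroblast and endothelial markers was 1344 and 1086 CPM in PA and 826 and 968 CPM in DMSO at 12 h, against 1354 to 1587 CPM in the other DMSO libraries. Most of it was the miR-126 strands, and miR-214-3p was at 0 in 6 of 14 libraries. The sum of 8 blood markers was 410 and 507 CPM in PA and 544 and 597 CPM in DMSO at 12 h, against 317 to 399 CPM in the other DMSO libraries. It was mostly miR-486-5p, and the red cell marker miR-451a was at 0 in 10 libraries. A list of 10 entries used as a sign of RNA quality summed to 6914 and 11531 CPM in PA and 6223 and 3740 CPM in DMSO at 12 h. The other DMSO libraries had 4258 to 8852 CPM for this list. Its largest entry was miR-4454, at 5094 CPM on average. The 5 muscle, liver and neuron markers with a row, nearly all of it miR-9-5p, summed to 1959 and 1874 CPM in PA and 1255 and 1161 CPM in DMSO at 12 h, against 1420 to 1689 CPM in the other DMSO libraries, and the liver marker miR-122-5p was at 0 in 10 of 14. At 3 h the ductal carcinoma sums did not overlap either (248696 and 231550 CPM in PA, 266846 and 252482 CPM in DMSO). Nor did the RNA quality sums at 3 h (4689 and 4946 CPM in PA, 4258 and 4408 CPM in DMSO). The other lists overlapped at 3 h. The part of the marker sums in the miR-29 results was not tested. All 6 ductal carcinoma markers were present in every library, with miR-21-5p at 186226 CPM on average, though miR-155-5p averaged 16.9 CPM. They summed to 192951 and 171992 CPM in PA and 206022 and 178973 CPM in DMSO at 12 h. The other DMSO libraries had 185738 to 266846 CPM. The epithelial miR-200 group with miR-205-5p summed to 53.4 and 85.2 CPM in PA and 55.7 and 50.02 CPM in DMSO at 12 h, against 58.2 to 81.2 CPM in the other DMSO libraries, and miR-205-5p was at 0 in 12 of 14 libraries. The 6 acinar and islet markers summed to 227 and 257 CPM in PA and 284 and 208 CPM in DMSO at 12 h, against 138 to 262 CPM in the other DMSO libraries, and the acinar marker miR-216a-5p was at 0 in 13. All libraries came from the same established cell line. The sums therefore describe miRNA levels in that line and were not read as numbers of other cell types. Within the line, bulk libraries cannot separate fewer cells carrying a miRNA from less of it per cell.

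At 24 h the PA libraries lay below the DMSO libraries for all 3 members, but none passed. The log2 fold changes were -0.080 ± 0.13 for miR-29a-3p (interval -0.36 to 0.20, adjusted p = 0.803), -0.24 ± 0.18 for miR-29b-3p (interval -0.62 to 0.13, adjusted p = 0.489) and -0.24 ± 0.19 for miR-29c-3p (interval -0.66 to 0.17, adjusted p = 0.522). PA libraries lay wholly below DMSO libraries for 26.5% of all entries at this time, while 6.67% passed the test, 2.35% as lower. Marker sums without overlap at 24 h were those of blood (557 and 504 CPM in PA, 382 and 399 CPM in DMSO) and of fibroblast and endothelial cells (1304 and 1180 CPM in PA, 1375 and 1362 CPM in DMSO). The same held for acinar and islet cells (210 and 156 CPM in PA, 262 and 251 CPM in DMSO), the epithelial list (85.4 and 85.8 CPM in PA, 81.2 and 65.9 CPM in DMSO) and the RNA quality list (9029 and 11168 CPM in PA, 8852 and 7184 CPM in DMSO). The ductal carcinoma sums and the muscle, liver and neuron sums overlapped at 24 h. The part of the marker sums in the 24 h values was not tested.

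**Figure D2:**
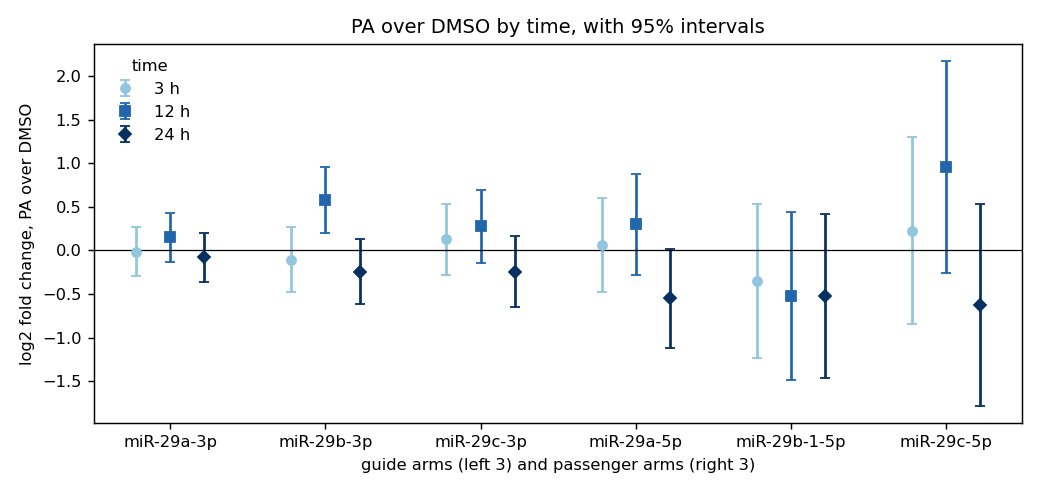
Log2 fold change of PA over DMSO (vertical axis) at 3 h (circles), 12 h (squares) and 24 h (diamonds). Shown are the 3 guide strands and 3 tested passenger strands, with 95% intervals derived from the edgeR test. Only the interval of miR-29b-3p at 12 h, 0.20 to 0.96, lies off 0.

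The mean effect came from a fit with time as a factor and 1 PA effect common to 3, 12 and 24 h, and no member passed. Any difference of the PA effect between times adds to the spread in this fit. The mean log2 fold change was 0.019 ± 0.093 for miR-29a-3p, 0.075 ± 0.15 for miR-29b-3p and 0.056 ± 0.14 for miR-29c-3p, and 0 of 808 entries passed by edgeR (0%), with 118 at an unadjusted p under 0.05 and 6 passing by DESeq2. A test of whether the PA effect differed between times did not pass for miR-29b-3p (adjusted p = 0.109), miR-29a-3p (0.686) or miR-29c-3p (0.430), while 5.93% of entries passed. The widest gap was that of miR-29b-3p between 24 and 12 h, a difference of log2 fold changes of -0.82 ± 0.25 that missed the threshold (adjusted p = 0.0552). Without PA 24 h A the adjusted p of miR-29b-3p was 0.0319 for the test over times and 0.0142 for this gap, and without DMSO 12 h A it was 0.0325 and 0.0162. With total counts as the scaling the test over times gave 0.0368 for miR-29b-3p. The same gap for miR-29c-3p was -0.52 ± 0.28 (adjusted p = 0.255), and -0.88 without DMSO 12 h A (adjusted p = 0.0389). Of all entries 8.64% passed in that contrast.

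The passenger strands gave no call at any time, on far lower counts. miR-29a-5p had 66.4 and 83.6 CPM in PA and 63.4 and 81.3 CPM in DMSO at 3 h. It had 52.4 and 54.6 CPM in PA and 41.0 and 46.4 CPM in DMSO at 12 h, a log2 fold change of 0.30 ± 0.27 (adjusted p = 0.521). At 24 h it had 50.9 and 32.8 CPM in PA and 69.7 and 55.5 CPM in DMSO, a log2 fold change of -0.55 ± 0.27 (adjusted p = 0.245). The signs of this strand were those of its guide at 12 and 24 h. PA libraries were wholly above DMSO libraries at 12 h, as for 25.3% of all entries, and wholly below at 24 h, as for 26.5%.

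miR-29b-1-5p, the passenger of the chromosome 7 copy of miR-29b, had 15.6 and 14.7 CPM in PA and 16.5 and 28.2 CPM in DMSO at 12 h, a log2 fold change of -0.53 ± 0.45 (interval -1.49 to 0.44, adjusted p = 0.493). The DMSO libraries were unlike each other, and the value was -0.88 without DMSO 12 h A and -0.11 without DMSO 12 h B. The sign of miR-29b-1-5p was opposite to that of its guide, on 29 to 37 counts in a library at 12 h, and its interval included 0. The difference of miR-29b-1-5p from its guide was not tested. miR-29c-5p had 6.55 and 9.56 CPM in PA and 4.55 and 3.64 CPM in DMSO at 12 h, a log2 fold change of 0.95 ± 0.57 (adjusted p = 0.315), with no overlap between the groups. At 24 h the log2 fold changes were -0.52 ± 0.44 for miR-29b-1-5p and -0.63 ± 0.54 for miR-29c-5p. miR-767-5p, of the shifted seed, had log2 fold changes of 0.61 ± 0.49 at 3 h, 0.050 ± 0.52 at 12 h and 0.43 ± 0.50 at 24 h, and none passed.

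By calls, the family passed most often as a dip in vehicle-treated cells at 12 h, its lowest group by mean. Under PA the values at 12 h were also below those at 3 h, though no member passed. PA at 12 h over PA at 3 h was -0.33 ± 0.13 for miR-29a-3p (adjusted p = 0.451 by edgeR). It was -0.19 ± 0.18 for miR-29b-3p (adjusted p = 0.790) and -0.40 ± 0.19 for miR-29c-3p (adjusted p = 0.512). Against the mean of DMSO at 0, 3 and 24 h, DMSO at 12 h was lower by edgeR for all 3 members. The log2 fold change was -0.40 ± 0.11 for miR-29a-3p (adjusted p = 0.0212), -0.74 ± 0.15 for miR-29b-3p (adjusted p = 0.00355) and -0.56 ± 0.17 for miR-29c-3p (adjusted p = 0.0304). Of all 810 entries 16.5% passed in this contrast, 7.65% as lower and 8.89% as higher. These DMSO libraries are also the controls of the 12 h PA comparison, so both results share them. Library B carried much of the dip. Without it the values were -0.30 for miR-29a-3p (adjusted p = 0.212), -0.55 for miR-29b-3p (adjusted p = 0.0630) and -0.29 for miR-29c-3p (adjusted p = 0.376). The call of miR-29a-3p was also lost without DMSO 0 h B (0.0578), DMSO 3 h B (0.0563) or DMSO 24 h B (0.0513), and that of miR-29c-3p without DMSO 0 h A (0.0504) or DMSO 24 h A (0.0576). The A and B libraries of DMSO at 12 h also differed more from each other than those of any other group, with a chi-square per degree of freedom of 83.4 over entries, against 14.3 to 65.1 in the others.

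Over the 4 DMSO times together, miR-29b-3p passed an F test of change (adjusted p = 0.0179), and miR-29a-3p (0.0614) and miR-29c-3p (0.109) did not, with 13.1% of entries passing. Without DMSO 12 h B the adjusted p of miR-29b-3p was 0.131, and without DMSO 12 h A that of miR-29c-3p was 0.0186, and without PA 24 h A that of miR-29a-3p was 0.0444. Under PA none of the 3 passed an F test over 3, 12 and 24 h, with adjusted p-values of 0.297 for miR-29a-3p, 0.482 for miR-29b-3p and 0.349 for miR-29c-3p, and 3.95% of entries passing. From 3 h onward all 3 had negative values under PA, as PA at 24 h over PA at 3 h was -0.29 ± 0.13 for miR-29a-3p, -0.38 ± 0.18 for miR-29b-3p and -0.45 ± 0.19 for miR-29c-3p (adjusted p = 0.244, 0.268 and 0.229 in that order). Passenger strands in the DMSO contrast at 12 h had log2 fold changes of -0.63 ± 0.23 for miR-29a-5p (adjusted p = 0.0716), -0.027 ± 0.37 for miR-29b-1-5p and -0.73 ± 0.50 for miR-29c-5p, and none passed.

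**Figure D3:**
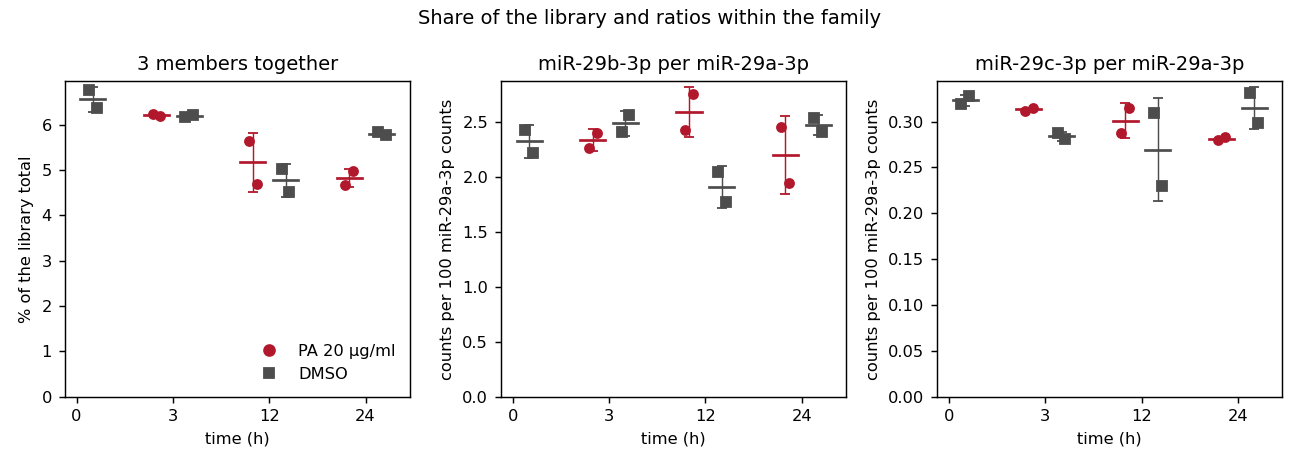
Share of all counts held by the 3 members (left), and counts of miR-29b-3p (middle) and miR-29c-3p (right) per 100 counts of miR-29a-3p, at 0, 3, 12 and 24 h, with PA in red circles left of DMSO in grey squares. Points are libraries, lines means and bars 1 SD (n = 2). At 12 h the miR-29b-3p ratio was 2.43 and 2.76 in PA and 2.05 and 1.78 in DMSO.

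Ratios within a library do not depend on how libraries are scaled. Per 100 counts of miR-29a-3p, miR-29b-3p had 2.43 and 2.76 counts in PA and 2.05 and 1.78 counts in DMSO at 12 h. The B libraries held the extremes, with 2.76 the highest and 1.78 the lowest of 14 libraries. The A libraries did not, as DMSO 3 h B (2.57) lay above PA 12 h A and PA 24 h B (1.95) below DMSO 12 h A. At 24 h the ratio was 2.46 and 1.95 in PA and 2.54 and 2.41 in DMSO, and at 3 h it was 2.27 and 2.41 in PA and 2.41 and 2.57 in DMSO. DMSO at 0 h had 2.43 and 2.22. The miR-29c-3p ratio at 12 h was 0.287 and 0.315 in PA and 0.309 and 0.230 in DMSO, and those groups overlapped. The members' unequal change at 12 h is a description of 4 libraries and was not tested as a ratio.

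Across the 14 libraries the 3 guide strands varied together. Pearson's r of log2 CPM was 0.87 between miR-29a-3p and miR-29b-3p, 0.91 between miR-29a-3p and miR-29c-3p and 0.88 between miR-29b-3p and miR-29c-3p. These are descriptions, as libraries share groups and each value is a share of its library. Reads could also be shared between miR-29a-3p and miR-29c-3p. The joint variation was not particular to the family. miR-32-5p came closer to miR-29b-3p (r = 0.94), and miR-106b-5p to miR-29c-3p (r = 0.93), than any member did. For miR-29a-3p the closest entry outside the family was miR-130a-3p (r = 0.90). miR-29a-5p had an r of 0.74 with its guide. miR-29b-1-5p had an r of 0.23 with miR-29b-3p, and miR-29c-5p an r of 0.45 with miR-29c-3p, both on few counts.

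**Figure D4:**
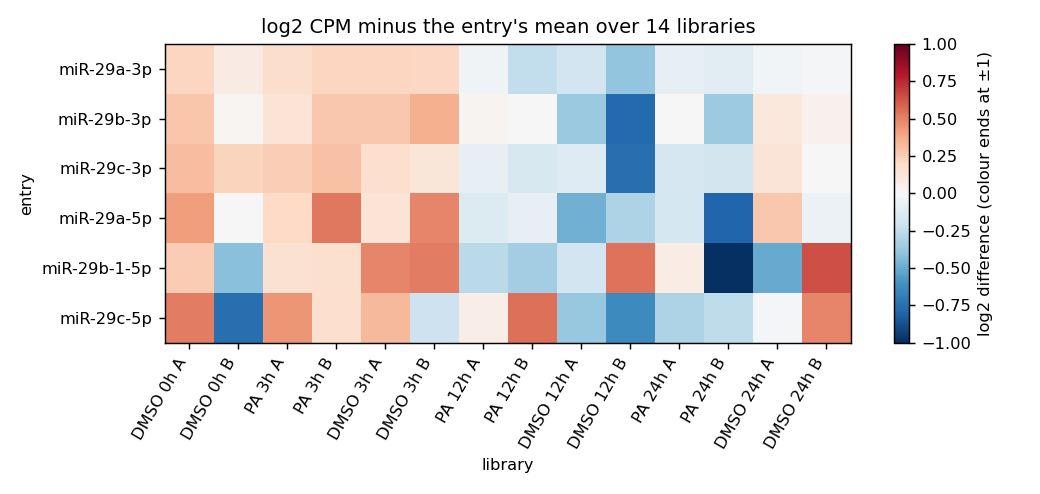
Log2 CPM of each guide and tested passenger strand (rows) minus that strand's mean over 14 libraries, by library (columns, in order of time with PA left of DMSO), in blue below and red above the mean, with colours ending at 1 log2 unit. In DMSO 12 h B the 3 guides are 0.39, 0.78 and 0.76 below their means, while miR-29b-1-5p is 0.54 above its own.

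The entries most like each member were taken from 269 named miRNAs with a mean of at least 50 CPM, by Pearson's r over 14 libraries. For miR-29a-3p they were miR-130a-3p (r = 0.90), miR-21-5p (0.88), let-7i-3p (0.87) and miR-17-3p (0.86). For miR-29b-3p they were miR-32-5p (r = 0.94), miR-374b-5p and miR-374c-3p (0.92 each, with identical counts) and miR-15a-5p (0.92). For miR-29c-3p they were miR-106b-5p (r = 0.93), let-7i-3p (0.92), miR-30e-5p (0.89) and miR-1307-5p (0.88).

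Other miRNAs reported to act on the same targets were described by list. Of 11 tested miRNAs reported to repress enzymes of DNA or histone methylation, as miR-29 does DNMT3A and DNMT3B, 2 were higher in PA at 12 h by edgeR, as were 6.3% of all 810 entries. They were miR-138-5p (log2 fold change 0.84 ± 0.24, adjusted p = 0.0379) and miR-152-3p (0.74 ± 0.22, adjusted p = 0.0422), a member of the miR-148 family. The list's median was 0.49, against -0.06 over all entries. At 24 h none of the 11 passed, and the median was 0.081 against -0.011 over all entries.

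Of 12 tested miRNAs reported to repress collagens or the matrix factor CTGF, 3 were higher and 1 lower in PA at 12 h by edgeR, against 6.3% higher and 4.81% lower of all entries. The higher ones were miR-19a-3p (1.67 ± 0.40, adjusted p = 0.0177), miR-19b-3p (1.55 ± 0.35, adjusted p = 0.0114) and miR-30e-5p (0.75 ± 0.20, adjusted p = 0.0243), and the lower one was miR-30d-5p (-0.69 ± 0.14, adjusted p = 0.00617). The seeds of miR-30d and miR-30e are alike, so 2 members of one family passed in opposite directions. The list's median was 0.32. At 24 h 1 of the 12 passed, miR-18a-5p, lower at -0.88 ± 0.18 (adjusted p = 0.0091), where 2.35% of all entries were lower, and the median was -0.048.

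Of 10 tested miRNAs reported to repress MCL1 or its relative BCL2, 3 were higher in PA at 12 h by edgeR, against 6.3% of all entries. They were miR-34a-5p, a target of p53 (1.12 ± 0.25, adjusted p = 0.0108), miR-153-3p (2.07 ± 0.41, adjusted p = 0.0044) and miR-15a-5p (0.59 ± 0.16, adjusted p = 0.0307). The list's median was 0.61 at 12 h and 0.12 at 24 h, when none passed. At 3 h no member of the 3 lists passed, and medians lay between -0.034 and 0.061.

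In DMSO at 12 h, 1 of 11 of the methylation list was lower and none higher, 3 of 12 of the matrix list were lower and 3 higher, and 3 of 10 of the survival list were lower and none higher. Of all entries 7.65% were lower and 8.89% higher. Lower at 12 h than at the other DMSO times by edgeR were miR-138-5p (-0.95 ± 0.21, adjusted p = 0.00584), miR-30b-5p (-0.48 ± 0.13, adjusted p = 0.0185), miR-19b-3p (-1.05 ± 0.30, adjusted p = 0.0265), miR-30e-5p (-0.86 ± 0.17, adjusted p = 0.00286), miR-34a-5p (-0.87 ± 0.22, adjusted p = 0.0120), miR-153-3p (-1.96 ± 0.36, adjusted p = 0.00196) and miR-15a-5p (-0.56 ± 0.14, adjusted p = 0.00972). Higher were let-7g-5p (0.49 ± 0.11, adjusted p = 0.0066), miR-30d-5p (0.53 ± 0.11, adjusted p = 0.00399) and miR-98-5p (0.42 ± 0.12, adjusted p = 0.0222). Medians were -0.25 for the methylation list, -0.33 for the matrix list and -0.53 for the survival list, against 0.029 over all entries. With the mean of the other DMSO times as the control, none of the list members named at 12 h passed in PA, with adjusted p-values between 0.256 for miR-152-3p and 0.930 for miR-15a-5p. Of 14 fits that left out 1 library, the 12 h PA call held in 6 for miR-138-5p, 9 each for miR-19a-3p and miR-15a-5p, 10 each for miR-152-3p and miR-19b-3p, 12 each for miR-30d-5p and miR-30e-5p, 13 for miR-34a-5p (lost without DMSO 12 h B) and 14 for miR-153-3p. The 24 h call of miR-18a-5p held in 11, and was lost without PA 24 h B, DMSO 24 h A or DMSO 24 h B. The call in DMSO at 12 h held in 3 of 14 such fits for miR-98-5p, 4 for miR-19b-3p, 11 for miR-30b-5p and at least 13 for the other list members named.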

How the data were processed

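The authors deposited whole-number read counts per mature miRNA entry and library, which were used here. Their second table, of TPM values, was not used. The submitters' processing notes name GRCh38, Bowtie, bcl2fastq and edgeR. Their versions and roles are not given in the sources used here, nor are the rules for mismatches, multiple mapping and strand. Each value column matched the title of 1 library. Entries with only a sequence name (502 of 2848) held 1.65% to 3.17% of counts.

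The test was edgeR 4.0.16 in R 4.3.3 (glmQLFit, robust, TMM) after filterByExpr (minimum count 10, minimum total 15). One fit by group held all 14 libraries and 810 entries. The mean PA effect used 12 libraries, with time as a factor, and 808 entries. Benjamini-Hochberg values ran over all entries. DESeq2 1.42.0 was an alternative.

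Named were the members, their passenger strands, miR-767-5p, the 4 most correlated entries per member, and list members that passed. Members, lists and tests were chosen with earlier results of these data known. On data simulated for PA over DMSO at 12 h (756 entries), the fit recovered 44.1% of changes of 1 log2 unit and 68.4% of 1.5, with 5.36% of 112 calls false. Apart from the planted changes, the simulation held no change over time and no group of wider spread. The planted changes were also larger than those of the members. These rates therefore need not hold for the real comparison at 12 h.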

Additional observations from a re-analysis of the deposited data

How the results depend on the processing

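The cause of the changes below was not tested, except where fewer libraries or entries entered a fit. Values are log2 fold changes unless counts are named. For miR-29b-3p at 12 h the call was lost with DESeq2 size factors (0.54, adjusted p = 0.0571), named entries only (0.56, 0.0710) and only the 4 libraries compared (0.56, 0.185). It held with total counts, no filter, the DESeq2 test, the replicate block and miR-29a-3p and miR-29c-3p as 1 entry. Leaving out single libraries gave 0.40 to 0.80, and 10 of 14 lost the call. These were PA 3 h A and B, PA 12 h A (adjusted p = 0.140) and B (0.124), DMSO 0 h B, DMSO 3 h A and B, DMSO 12 h B (0.260) and DMSO 24 h A and B. The adjusted p ran from 0.0135 to 0.644 over all alternatives. With the other DMSO times as the control, 12 h values turned to -0.25 (miR-29a-3p), -0.16 (miR-29b-3p), -0.28 (miR-29c-3p), -0.33 (miR-29a-5p), -0.11 (miR-138-5p) and -0.11 (miR-30e-5p).

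At 3 h, uncalled values near 0 changed sign. miR-29a-3p was 0.0085 with total counts, 0.052 without the filter, 0.038 with named entries only and 0.25 against the other DMSO times, and -0.014 to 0.020 without single libraries. miR-29b-3p was 0.32 and miR-29b-1-5p 0.043 against the other DMSO times, and miR-29c-3p was -0.015 merged with miR-29a-3p. Without single libraries miR-29a-5p ran from -0.12 to 0.26 and miR-29c-5p from -0.0066 to 0.58 at 3 h, and miR-29b-1-5p from -1.34 to 0.23 at 24 h. For the mean effect, total counts gave -0.049 (miR-29a-3p) and -0.012 (miR-29c-3p), and 3 and 24 h alone gave -0.019 (miR-29a-3p), -0.15 (miR-29b-3p) and -0.027 (miR-29c-3p). Without single libraries miR-29b-3p ran from -0.0082 to 0.19 and miR-29c-3p from -0.0074 to 0.13. The PA effect at 12 minus 3 h ran from -0.14 to 0.51 for miR-29c-3p, and that at 24 minus 3 h from -0.33 to 0.051 for miR-29b-3p.

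The DMSO dip lost its call for miR-29a-3p with named entries only (-0.36, adjusted p = 0.0589) and for miR-29c-3p without the filter (-0.62, 0.0563). Without single libraries it ran from -0.49 to -0.30 for miR-29a-3p (lost in 4 of 14), -0.94 to -0.55 for miR-29b-3p (lost without DMSO 12 h B alone) and -0.91 to -0.29 for miR-29c-3p (lost in 3). The gap of miR-29b-3p between 24 and 12 h passed with total counts (adjusted p = 0.0146), without the filter (0.0313), with the replicate block (-0.83, 0.0496), and without PA 24 h A (0.0142) or DMSO 12 h A (0.0162).

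The number of entries passing was 1 at 3 h with named entries or 4 libraries, 33 at 12 h with 4 libraries and 5 against the other DMSO times. It was 43 for 24 minus 12 h and 22 for the effect differing between times with named entries. For change in PA it was 54 without the filter and 16 with named entries, and for the mean effect 16 without the filter and 6 with DESeq2. Leaving out single libraries gave 1 to 2 at 3 h, 34 to 107 at 12 h, 12 to 71 at 24 h, 28 to 118 for 24 minus 12 h, 79 to 148 for the DMSO dip, 25 to 87 for the effect differing between times, 67 to 136 for change in DMSO, 6 to 50 for change in PA and 0 to 2 for the mean effect.

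Same-lettered libraries did not deviate together (correlations of -0.17 to 0.11 over 21 pairs of groups), so the letters were not taken as pairs. With the replicate block, miR-29b-3p at 12 h was 0.58 (adjusted p = 0.0476), 77 entries passed at 12 h, and the calls of miR-138-5p (0.0514) and miR-152-3p (0.0591) were lost. Without the filter, the 12 h calls of miR-30d-5p (0.0864), miR-19a-3p (0.257) and miR-19b-3p (0.238) and the DMSO calls of let-7g-5p (0.0619), miR-30d-5p (0.0563), miR-98-5p (0.256) and miR-19b-3p (0.348) were lost. With only 4 libraries the 12 h calls of miR-138-5p (0.154), miR-152-3p (0.136), miR-30d-5p (0.121), miR-30e-5p (0.137), miR-34a-5p (0.0927), miR-153-3p (0.0597) and miR-15a-5p (0.158) were lost. DESeq2 size factors ended those of miR-138-5p and miR-152-3p (0.0533 each), and named entries only the DMSO call of miR-19b-3p (0.0540). The passenger strands had at least 39 counts in a library for miR-29a-5p, 10 for miR-29b-1-5p and 4 for miR-29c-5p, and depth was not tested.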
